A study of Mus musculus with 11 samples.

Results

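Whole stomachs of mice given rapamycin together with tamoxifen (2 arrays) were compared with whole stomachs of mice given the sunflower-oil vehicle (2 arrays). These 4 arrays, chosen by their titles, are 4 of the 11 arrays of the series. All mice were adult C57Bl/6, and no genetic change is named for any group. The combined group received 0.6 mg rapamycin per 20 g mouse for 10 days and 5 mg tamoxifen per 20 g mouse for 3 days, and every treatment was a daily injection into the peritoneum. Tamoxifen alone (2 arrays) and rapamycin alone (3 arrays) used the same doses and durations, and 1 array each held purified parietal cells and the rest of the stomach's cells. The sources used here do not say on which days the drugs overlapped or whether each array was 1 mouse, so p-values measure only the spread between these arrays. They also give neither the sex of the mice nor the solvent of rapamycin, and any part of that solvent was not tested.

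Tamoxifen binds oestrogen receptors and, at high dose, is known to injure the acid-secreting parietal cells of the mouse stomach. Rapamycin inhibits mTORC1, a kinase complex that senses nutrients and drives protein synthesis and cell growth. The gastric gland also holds chief cells, which secrete digestive enzymes, mucous cells of the neck and surface, hormone-secreting endocrine cells and dividing progenitors, and the mouse stomach has a squamous forestomach beside the glandular part. The comparison with vehicle asks how the stomach differs when both drugs are given, and the single-drug groups show where the combined group stood apart from either.

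Expression is given as log2 values, in which a difference of 1 is a 2-fold difference, and errors after ± are standard errors from limma. A gene was called changed at a Benjamini-Hochberg adjusted p under 0.05 over 22180 genes. Fewer cells of a type and less RNA per cell cannot be told apart in whole tissue. The markers of stomach lining were high in both groups: 11 surface pit mucous genes averaged 12.23 and 12.44 in the vehicle arrays and 12.32 and 12.28 in the combined arrays. The 21 parietal cell genes stood a median of 3.06 higher in the parietal-cell array than in the other-cell array.

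The groups also differed in forestomach signal. The 16 squamous keratin and cornified-envelope genes averaged 5.14 and 4.81 with vehicle against 8.78 and 9.06 with both drugs. The average was 9.50 and 4.96 with tamoxifen and 9.47, 8.21 and 5.45 with rapamycin. Both combined arrays were therefore high and both vehicle arrays low, while each single-drug group held arrays of either kind. All 16 genes were higher in the combined group (median 3.69), yet 0 were called in a fit whose error includes the spread within the single-drug groups. When this mean entered the fit as a covariate, 10 genes were called in place of 254, all of them lower with both drugs. Of the 10, 9 were among the 254. The covariate separates the 2 compared groups, so a fit with it has less power to call changes between them. With it the list medians were 0.73 for DNA replication, 1.25 for interferon response, -0.56 for parietal cell and -0.58 for mast cell genes. Without it they were 0.73, 1.10, -0.77 and -0.88. Some other medians shrank more or changed sign. Without and with the covariate they were -0.32 and -0.06 for endoplasmic reticulum folding and -0.39 and -0.13 for respiratory chain genes. For adipocyte genes they were 0.37 and -0.09. The part of forestomach content in the other differences was not tested.

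With both drugs 254 genes were called (1.15% of those tested). Of these 91 rose (0.41%) and 163 fell (0.735%), and the change passed 2-fold for 182. The 5 largest falls were in Gm12888 (a predicted gene), B4galnt2 (glycan synthesis), Gpr155 (a lysosomal protein), Mcpt1 (mast cells) and Gm5409. The 5 largest rises were in Gast (gastrin), Slurp1 (squamous epithelium), Cyp2b10 (drug metabolism) and the interferon-response genes Ifi205 and Irf7. The median change over all genes was -0.03. Few calls held with every array left out in turn: 11 of 254 were kept in all 9 fits, all 11 of them falls. They were Gm12888, B4galnt2, Lpl, Egf, Rnase1, Tmed6, Kcnj16, St3gal4, Slc26a7, Adcyap1r1 and Il31ra. Without combination 1 or combination 2, which leaves a single combined array assumed to vary like the others, 17 and 28 genes were called. Fitted on the 4 vehicle and combined arrays alone, 338 genes were called, 215 higher and 123 lower. Over all groups the count was 75 without vehicle 1, 114 without vehicle 2, between 111 and 129 without a rapamycin array, and 376 without either tamoxifen array.

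**Figure D1:**
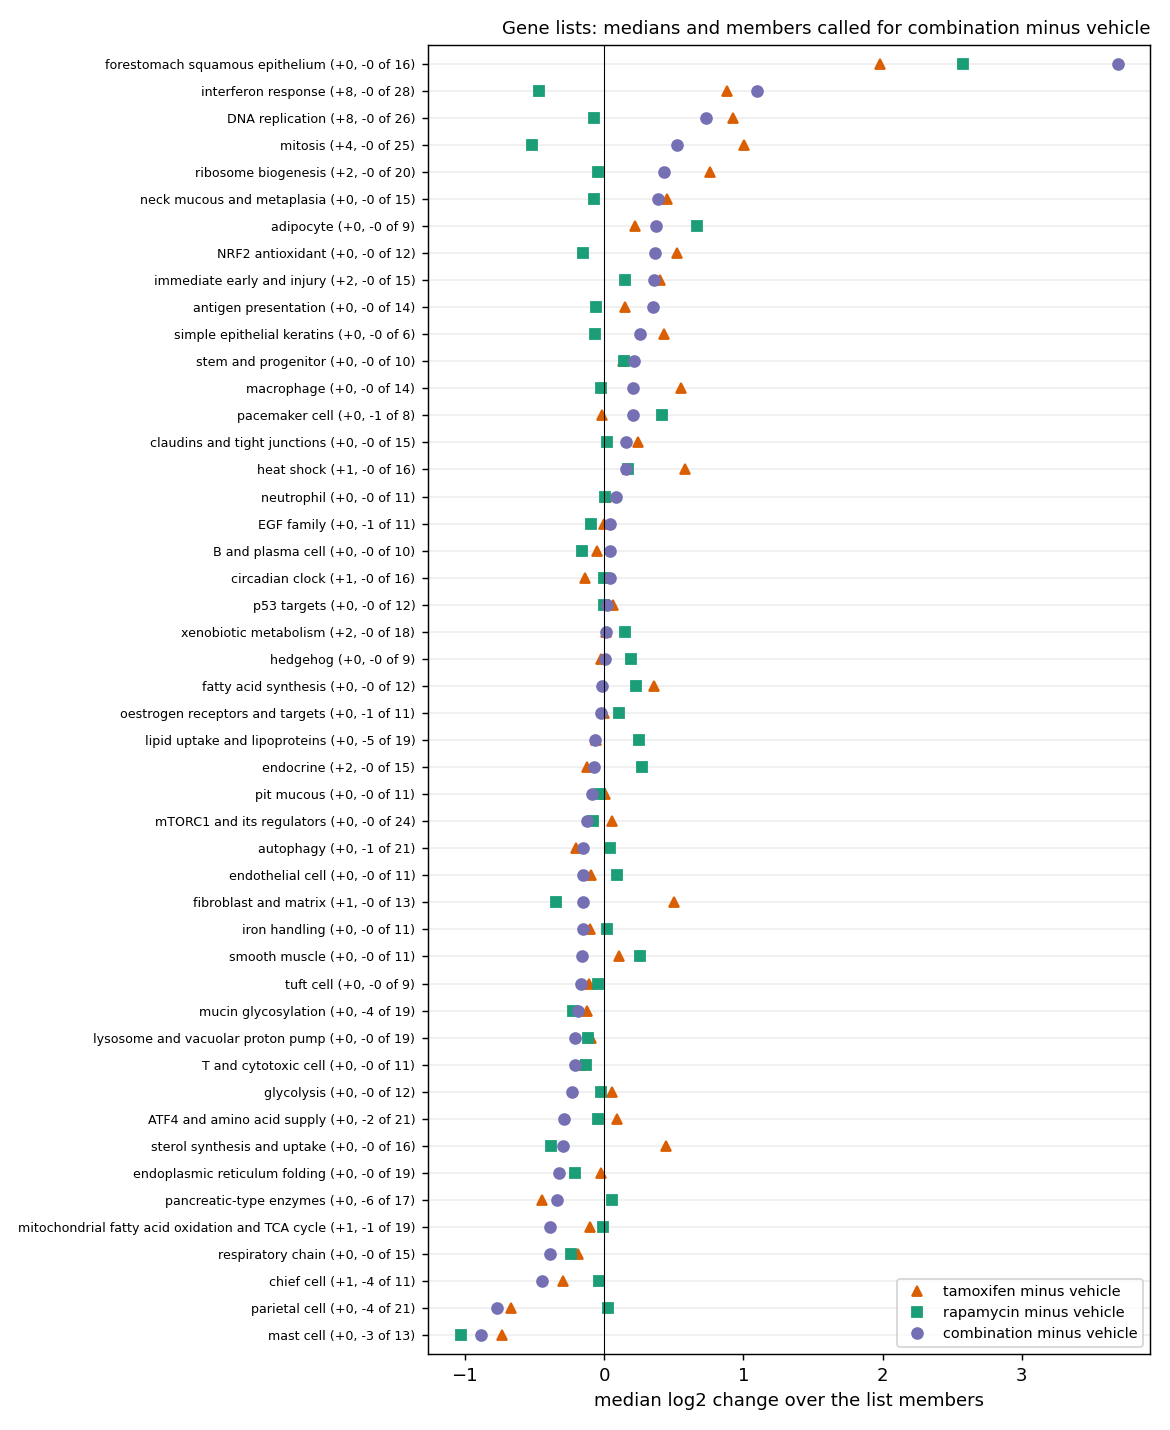
Median log2 change of each of 48 gene lists against the same 2 vehicle arrays, with triangles for tamoxifen, squares for rapamycin and circles for both drugs; the numbers in brackets are the members called higher and lower with both drugs, and the list size. Squamous (3.69), interferon (1.10) and DNA replication (0.73) lists lie farthest to the right for both drugs, and mast cell (-0.88) and parietal cell (-0.77) lists farthest to the left.

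Parietal cell genes were lower with both drugs. Of 21 genes, 4 fell and 0 rose, against 0.735% of all genes that fell, and the other 17 did not pass; every one of the 21 had a lower mean (median -0.77). Kcnj16, a potassium channel subunit, read 10.99 and 10.72 in the vehicle arrays and 8.27 and 8.44 in the combined arrays, and fell by 2.50 ± 0.17 (adjusted p = 0.00135). Slc26a7, an anion exchanger, read 8.68 and 8.34 with vehicle and 5.86 and 6.42 with both drugs, and fell by 2.37 ± 0.22 (adjusted p = 0.00393). For Kcnj16 the 3 rapamycin arrays lay near vehicle, between 10.69 and 11.05. For Slc26a7 they lay above both vehicle arrays, between 8.92 and 9.26. That difference was 0.59 ± 0.20 and did not pass (limma adjusted p = 0.485). For both genes the tamoxifen arrays lay near the combined ones. The chloride-bicarbonate exchanger gene Slc4a2 changed by -1.30 ± 0.25 (adjusted p = 0.0475) and the ubiquitin ligase gene Trim50 by -1.09 ± 0.19 (adjusted p = 0.0369). Those 2 calls were kept in 2 of 9 fits with 1 array left out, namely the fits without a tamoxifen array.

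The genes of the acid pump itself did not pass. Atp4a, the catalytic subunit, read 13.17 and 13.30 with vehicle and 12.19 and 12.53 with both drugs (adjusted p = 0.117). Atp4b, the beta subunit, read 13.36 and 13.42 with vehicle and 12.28 and 12.66 with both drugs (adjusted p = 0.122). The vehicle and combined arrays did not overlap for either subunit, as for the 24.8% of all genes that were lower without overlap. The histamine receptor gene Hrh2 stood at -1.12 (adjusted p = 0.122), and the water channel gene Aqp4 at -1.98 (adjusted p = 0.171). Carbonic anhydrase gene Car2 stood at -0.18, with vehicle arrays at 12.64 and 13.15 and both combined arrays at 12.72. These 5 genes were named after their values were seen. Against the same vehicle arrays the list median was -0.67 with tamoxifen, where 3 members fell (0.784% of all genes did), and 0.02 with rapamycin, where 0 did (0.0406% of all genes). Against rapamycin alone 9 members were lower with both drugs, as were 1.32% of all genes. The list median with both drugs ran from -0.87 without vehicle 1 to -0.72 without combination 1.

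The separated cells describe the called genes by cell fraction. Some called genes read far lower in both fractions than in whole stomach. Chia1, for example, read 13.26 and 13.05 with vehicle, but 3.90 and 5.11 in the parietal-cell and other-cell arrays. For such genes the difference between fractions does not show where they were expressed. Of the 163 genes that fell, 78 (47.9%) were at least 2 higher in the parietal-cell array than in the other-cell array, against 1.30% of all genes. Read the other way, 289 genes were that much higher in the parietal-cell array, and of these 78 fell and 1 rose with both drugs (median -0.68). Of the 91 genes that rose, 17 (18.7%) were at least 2 lower in the parietal-cell array, against 2.05% of all genes. With 1 array per cell fraction there was no test.

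**Figure D2:**
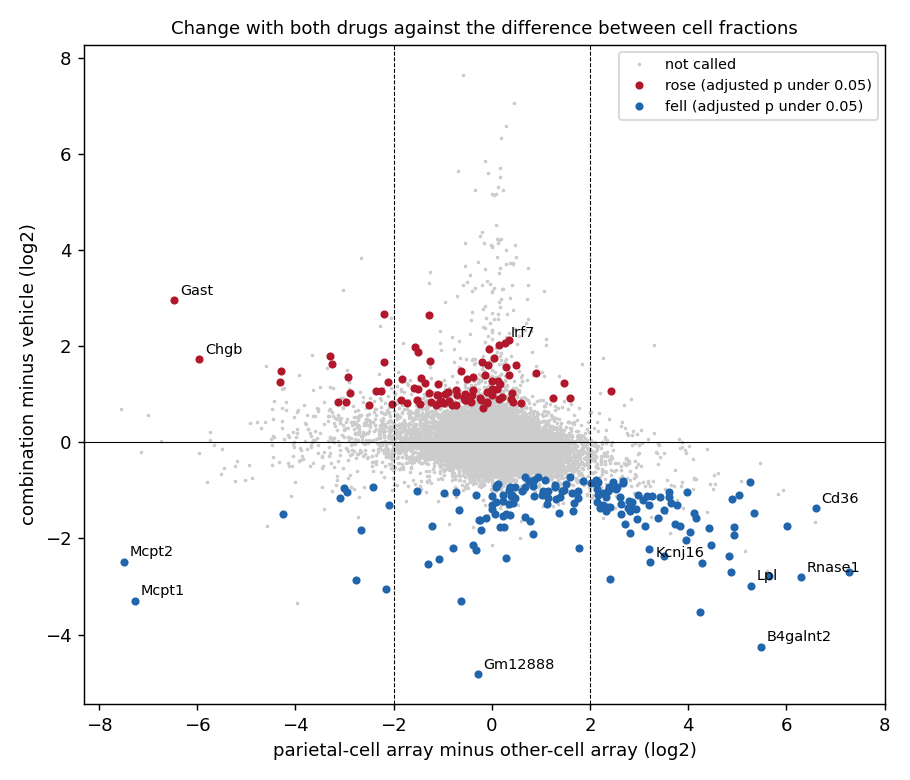
Each point is a gene, with the parietal-cell array minus the other-cell array on the x axis and both drugs minus vehicle on the y axis (log2); red and blue points were called higher and lower, and dashed lines mark a fraction difference of 2. The blue points to the right of the line are 78 of the 163 genes that fell, and Gast, Chgb, Mcpt1 and Mcpt2 lie at the far left.

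Several of the largest falls were in lipid genes that are rich in parietal cells. Lpl, the lipase that releases fatty acids from lipoproteins, read 10.55 and 10.18 with vehicle and 7.54 and 7.22 with both drugs, and fell by 2.98 ± 0.23 (adjusted p = 0.00168). The apolipoprotein genes Apoa4 and Apoa1 changed by -2.79 ± 0.29 and -2.70 ± 0.43, the fatty acid receptor gene Cd36 by -1.37 ± 0.19 and the fatty acid transporter gene Slc27a2 by -1.12 ± 0.21. Of 19 lipid uptake and lipoprotein genes these 5 fell (0.735% of all genes did) and 0 rose. The list median (-0.06) lay near that of all genes. Among these 5, Lpl, Apoa4, Apoa1 and Cd36 stood between 4.88 and 6.59 higher in the parietal-cell array, and Slc27a2 stood 0.39 higher. Lpl kept its call in 9 of 9 fits with 1 array left out and Apoa4 in 8, lost without combination 1. Cd36 lost its call without vehicle 1 or combination 1, and Apoa1 and Slc27a2 kept theirs in 2 fits. In the list of fatty acid oxidation and citrate cycle genes, Acadm, which opens the breakdown of medium-chain fatty acids, fell by 0.72 ± 0.13 (adjusted p = 0.0471). In the same list Pdk4, the kinase that switches off pyruvate dehydrogenase, rose by 0.91 ± 0.14 (adjusted p = 0.0243). Cox7a1, a subunit of cytochrome c oxidase, fell by 2.51 ± 0.43 (adjusted p = 0.0337), while of 15 other respiratory chain genes 0 were called. All 15 had lower means (median -0.39, with -0.58 without vehicle 1 and -0.26 without vehicle 2). The median was -0.13 with the squamous covariate. Acadm and Cox7a1 kept their calls in 2 of 9 fits and Pdk4 in 3.

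Glycan enzymes and Egf fell as well. B4galnt2, a transferase that adds N-acetylgalactosamine to glycans, read 10.07 and 9.99 with vehicle, 9.84, 9.86 and 9.83 with rapamycin, 6.04 and 6.90 with tamoxifen and 5.59 and 5.95 with both drugs. It fell by 4.26 ± 0.25 (adjusted p = 0.000557), and it stood 5.49 higher in the parietal-cell array. The sialyltransferase genes St3gal4 and St3gal1 changed by -2.42 ± 0.20 and -1.23 ± 0.15, and the fucosyltransferase gene Fut9 by -1.57 ± 0.27. These were 4 of 19 mucin glycosylation genes, while 0.735% of all genes fell. The 19 genes showed 0 rises and a median of -0.19 (-0.42 without vehicle 1 and -0.08 without vehicle 2). St3gal4 followed another pattern from B4galnt2: it read 8.46 and 8.86 with vehicle, 6.05, 5.97 and 5.76 with rapamycin, 6.86 and 6.70 with tamoxifen, and 6.44 and 6.04 with both drugs. It was thus low in all 3 treated groups. Egf, the growth factor gene, read 7.47 and 7.52 with vehicle and 4.63 and 4.68 with both drugs, and fell by 2.84 ± 0.21 (adjusted p = 0.00168). The other 10 measured genes of the EGF family did not pass. B4galnt2, St3gal4 and Egf kept their calls in 9 of 9 fits with 1 array left out. St3gal1 lost its call without vehicle 1 or either combined array, and Fut9 kept its call in 2 fits.

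**Figure D3:**
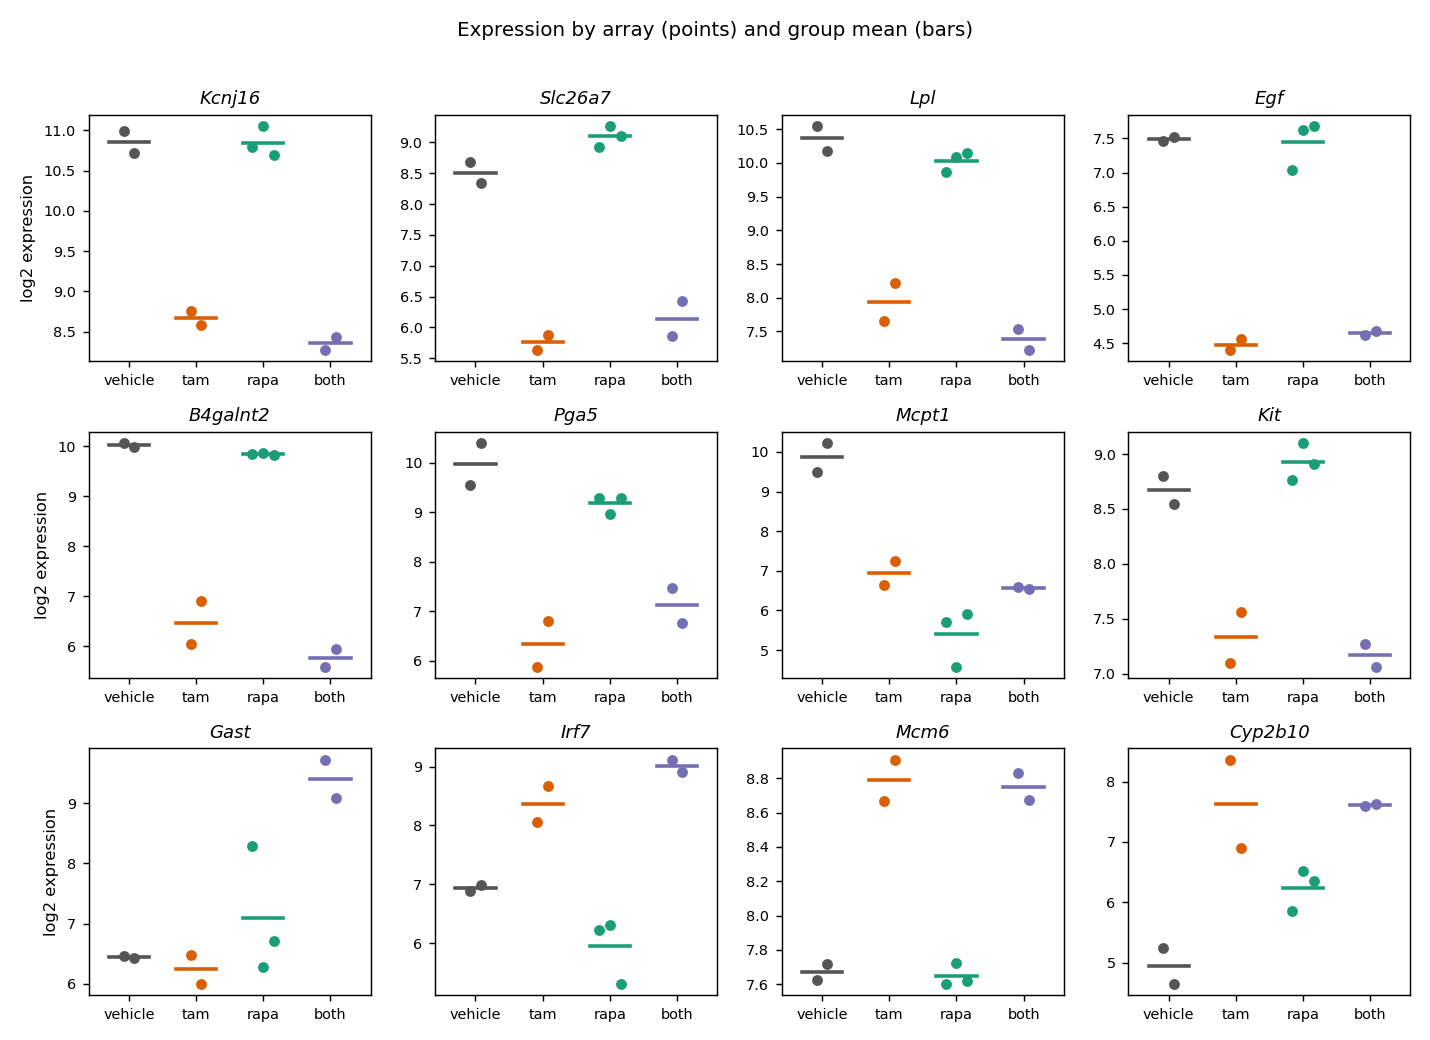
Log2 expression of 12 genes in each of the 9 whole-stomach arrays (points) with group means (bars); tam is tamoxifen, rapa is rapamycin and both is the combined group. Kcnj16, Slc26a7, Lpl, Egf, B4galnt2, Pga5 and Kit are low wherever tamoxifen was given, Mcpt1 is low in every treated group, and Gast is highest in the combined group.

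Other large falls were in genes of less settled or different function. Gm12888, a predicted gene, had the largest fall of all called genes: it read 10.66 and 9.98 with vehicle and 5.45 and 5.53 with both drugs, and fell by 4.83 ± 0.21 (adjusted p = 7.38e-05). In the parietal-cell and other-cell arrays it read 2.27 and 2.56, below the medians of those arrays (3.67 and 3.68). The difference of -0.29 between them therefore does not show which cells expressed it. Gpr155, a lysosomal membrane protein gene, changed by -3.53 ± 0.32 and Gm5409 by -3.29 ± 0.43. The uncharacterised gene 2210409E12Rik changed by -2.71 ± 0.47 and Tmed6, a cargo receptor gene of the secretory pathway, by -2.53 ± 0.19. The vehicle arrays were spread for 2210409E12Rik, at 5.69 and 7.35, against 3.89 and 3.74 with both drugs. The parietal-cell array minus the other-cell array was 4.24 for Gpr155, 7.27 for 2210409E12Rik, -1.29 for Tmed6 and -0.62 for Gm5409. Tmed6 lay between the others with rapamycin, at 8.70, 8.82 and 9.24, against 10.04 and 10.05 with vehicle and 7.60 and 7.43 with both drugs. Among 11 oestrogen receptors and targets, Gper1, a membrane oestrogen receptor gene, fell by 1.75 ± 0.18 (adjusted p = 0.00638) and the other 10 did not pass. Gper1 read 7.55 and 7.12 with vehicle and 5.52 and 5.65 with both drugs. Gper1 and 2210409E12Rik lost their calls without either combined array, 2210409E12Rik also without vehicle 2, rapamycin 2 or rapamycin 3. Gpr155 lost its call without combination 1, and Gm5409 without vehicle 1 or either combined array.

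Of 11 chief cell genes 4 fell (0.735% of all genes did), 1 rose (0.41% of all genes did) and 6 did not pass. The list median was -0.45, and -0.33 without vehicle 2. Pga5, a pepsinogen gene, read 9.56 and 10.41 with vehicle and 7.47 and 6.76 with both drugs, and fell by 2.87 ± 0.38 (adjusted p = 0.013). The chitinase gene Chia1 changed by -1.75 ± 0.19, the intrinsic factor gene Cblif by -1.16 ± 0.13 and the coat protein gene Copz2 by -1.27 ± 0.20. Tnfrsf19, a receptor of the tumour necrosis factor family, rose by 0.91 ± 0.16 (adjusted p = 0.0369). The pepsinogen gene Pgc and the gastric lipase gene Lipf did not pass, at -0.16 and 0.01 (adjusted p = 0.611 and 0.987). Bhlha15, which encodes the secretory regulator MIST1, stood at -0.72 (adjusted p = 0.164), and its levels were 7.64 and 7.17 with vehicle, 6.15 and 6.25 with tamoxifen and 6.62 and 6.75 with both drugs. Pgc, Lipf and Bhlha15 were named after their values were seen. Cblif likewise read lower with tamoxifen (11.19 and 11.30) than with both drugs (11.76 and 11.62), a difference of 0.44 ± 0.13 that did not pass (adjusted p = 0.813). Chia1 lost its call without combination 2, Cblif without either combined array, and Pga5 without vehicle 2 or either combined array. Copz2 kept its call in 3 of 9 fits and Tnfrsf19 in 2.

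Enzymes best known from the pancreas followed. Try4, a trypsinogen gene, read 9.59 in the lower of the vehicle arrays, against 6.99 and 7.50 with both drugs, and fell by 3.05 ± 0.45 (adjusted p = 0.0183). The secreted ribonuclease gene Rnase1 changed by -2.81 ± 0.26, the lipase-related genes Pnliprp1 and Pnliprp2 by -2.42 ± 0.28 and -1.83 ± 0.31, and the bile-salt lipase gene Cel by -2.24 ± 0.35. The parietal-cell array minus the other-cell array was 6.30 for Rnase1 and -2.15 for Try4. The colipase gene Clps fell by 1.03 ± 0.13 (adjusted p = 0.0119). Of 17 such genes these 6 fell (0.735% of all genes did) and 0 rose (median -0.34). The acinar genes Cpa1, Cpb1 and Ctrb1 read between 3.88 and 6.05 in the vehicle and combined arrays, with changes of 0.24, 0.02 and 0.12. Clps, Cpa1, Cpb1 and Ctrb1 were named after their values were seen. Trypsinogen genes are near-identical copies, so the signal of Try4 may include its relatives. Rnase1 kept its call in 9 of 9 fits with 1 array left out, Pnliprp1 lost it without either combined array, Try4 without vehicle 1, rapamycin 2 or either combined array, and Cel and Pnliprp2 kept theirs in 3 fits.

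Mucous cell lists held no called gene. Of 15 neck mucous and metaplasia genes 0 were called by limma with both drugs (1.15% of all genes were). With tamoxifen alone 2 fell, as did 0.784% of all genes. The list median with both drugs was 0.39 (0.20 without vehicle 1). Wfdc2, a secreted inhibitor gene of metaplastic glands, read 5.52 and 5.67 with vehicle and 6.39 and 6.91 with both drugs (1.05 ± 0.27, adjusted p = 0.138). The gland mucin gene Muc6, named after its values were seen, read 12.18 and 12.82 with vehicle and 11.81 and 10.93 with both drugs (adjusted p = 0.195). Neither reached the threshold, although their groups did not overlap, as for 44.1% of all genes. Of 11 pit mucous genes 0 were called (median -0.09), Krt20 standing nearest at 1.15 ± 0.25 (adjusted p = 0.0759). At an unadjusted p under 0.05, 3044 of all genes passed in this comparison.

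Mast cell genes were lower with both drugs. Mcpt1, a protease gene of mucosal mast cells, read 9.49 and 10.23 with vehicle and 6.60 and 6.53 with both drugs, and fell by 3.30 ± 0.43 (adjusted p = 0.013). Mcpt2, a close copy of it, fell by 2.48 ± 0.45 (adjusted p = 0.0418), and the 2 signals may not be separate. Both were lower still with rapamycin alone, at 5.71, 4.58 and 5.91 for Mcpt1 and 5.51, 5.37 and 6.04 for Mcpt2. Of 13 mast cell genes 3 fell (0.735% of all genes did) and 0 rose. All 13 had lower means (median -0.88, and -1.38 without vehicle 1). The last of the 3 was Kit, the stem cell factor receptor gene that mast cells share with the pacemaker cells of the gut wall. Kit read 8.80 and 8.55 with vehicle, 8.76, 9.10 and 8.91 with rapamycin, 7.10 and 7.56 with tamoxifen, and 7.28 and 7.06 with both drugs, and fell by 1.50 ± 0.20 (adjusted p = 0.013). Kit was therefore low where tamoxifen was given, while Mcpt1 and Mcpt2 were low under every treatment. The other 7 of 8 pacemaker cell genes did not pass (median 0.20, and 0.01 without vehicle 2). Mcpt1 lost its call without vehicle 2 or either combined array, Kit without vehicle 1 or either combined array, and Mcpt2 kept its call in 3 of 9 fits.

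Interferon-response genes were higher with both drugs. Of 28 genes, 8 rose and 0 fell, against 0.41% of all genes that rose, and all 28 had higher means (median 1.10). Irf7, the transcription factor that amplifies interferon production, read 6.88 and 6.99 with vehicle and 9.12 and 8.90 with both drugs, and rose by 2.08 ± 0.33 (adjusted p = 0.0255). Oasl2, an antiviral gene of the oligoadenylate synthetase family, read 7.63 and 7.18 with vehicle and 9.34 and 9.52 with both drugs (2.02 ± 0.28, adjusted p = 0.0144). With rapamycin alone both genes lay below every vehicle array, at 6.22, 6.31 and 5.31 for Irf7 and 6.57, 6.35 and 6.17 for Oasl2. The DNA sensor family gene Ifi205 rose by 2.14 ± 0.29, the helicase-like gene Ddx60 by 1.75 ± 0.31 and Bst2, which tethers budding virus to the cell surface, by 1.68 ± 0.30. The remaining called members were Xaf1 (1.45 ± 0.23), Oasl1 (1.13 ± 0.21) and Trim30a (1.09 ± 0.15), named after their values were seen. Ifi205, Oasl1, Oasl2 and Trim30a belong to families of close copies, so their probe sets may read relatives as well.

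Against the same vehicle arrays, the interferon list stood at a median of 0.88 with tamoxifen, where 4 of 28 rose (0.933% of all genes did), and -0.47 with rapamycin, where 0 rose (0.00902% of all genes). Compared with rapamycin alone, the combined group was higher in 22 of the 28 genes (median 1.45), where 1.13% of all genes rose. Compared with tamoxifen alone the median was 0.17 and 0 were called. Macrophage, neutrophil, T cell and B cell lists had 0 called genes each, with medians of 0.21, 0.09, -0.21 and 0.04. With 1 array left out the neutrophil median ran from -0.07 to 0.15, the T cell median from -0.38 to -0.12 and the B cell median from -0.04 to 0.05. The 14 antigen presentation genes had 0 called genes and a median of 0.35 (0.17 without combination 2). The interferon median ran from 0.98 to 1.28 with 1 array left out. Ifi205 lost its call without either combined array, Oasl2 without vehicle 2 or either combined array, and Irf7 without any of the 4 vehicle and combined arrays. Bst2 kept its call in 3 of 9 fits and Ddx60 in 2.

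Interferon acts through the interferon-stimulated response element, a promoter sequence bound by IRF and STAT factors. The promoters of Ddx60 (chr8:61927937-61928086, plus strand) and Bst2 (chr8:71537473-71537622, minus strand) are shown because each holds 2 copies of its core, among genes that rose. The core is GAAA, any 2 bases, then GAAA. Each line gives the 150 bases before the RefSeq transcript start on GRCm38.p6, with the core in capitals.
Ddx60: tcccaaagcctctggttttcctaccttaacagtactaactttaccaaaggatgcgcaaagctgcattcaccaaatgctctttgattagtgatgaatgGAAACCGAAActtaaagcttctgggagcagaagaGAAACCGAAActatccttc
Bst2: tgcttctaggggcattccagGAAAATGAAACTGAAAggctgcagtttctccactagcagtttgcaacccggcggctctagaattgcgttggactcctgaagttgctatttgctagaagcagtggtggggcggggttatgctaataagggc
In Bst2 the 2 copies overlap. Searched on both strands in the 250 bases before the start, the core was found in 11 of 20 interferon list genes with a RefSeq promoter, against 936 of 27025 genes (3.46%). A match describes the letters and not a bound site.

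**Figure D4:**
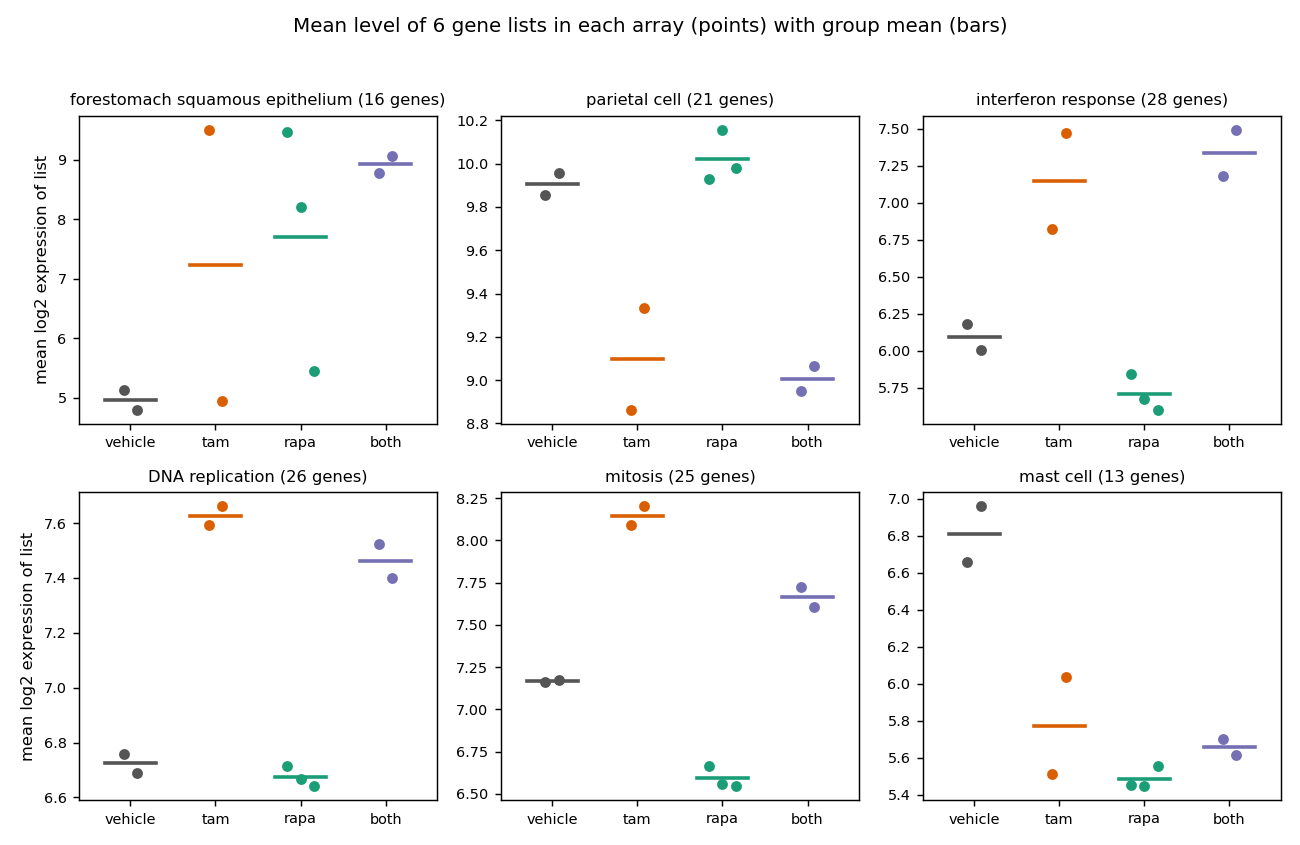
Mean log2 expression of 6 gene lists in each whole-stomach array (points) with group means (bars); tam is tamoxifen, rapa is rapamycin and both is the combined group. Squamous genes range from 4.81 to 9.50 and separate arrays within the tamoxifen and rapamycin groups, interferon and replication genes are high where tamoxifen was given, and mast cell genes are low in every treated group.

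Genes of DNA replication were higher with both drugs in every member measured. Of 26 genes, 8 rose (0.41% of all genes did) and 0 fell (median 0.73). The arrays of the 2 groups did not overlap for any of the 26, against 19.3% of all genes that were higher without overlap. Mcm6, a subunit of the helicase that opens replication origins, read 7.63 and 7.72 with vehicle and 8.83 and 8.67 with both drugs, and rose by 1.08 ± 0.14 (adjusted p = 0.0136). The helicase genes Mcm4, Mcm7 and Mcm5 rose by 1.05 ± 0.14, 0.93 ± 0.16 and 0.84 ± 0.16. The primase gene Prim1 rose from 6.57 and 6.78 to 7.64 and 7.70 (adjusted p = 0.0248). The origin licensing gene Cdt1 rose by 0.89 ± 0.16, the DNA ligase gene Lig1 by 0.89 ± 0.14 and Rrm2, which makes deoxyribonucleotides, by 0.86 ± 0.16. Mcm5, Lig1 and Rrm2 were named after their values were seen. Hells, a chromatin remodeller of dividing cells outside the list, rose by 1.70 ± 0.17 (adjusted p = 0.00638), from 6.39 and 6.06 to 8.01 and 7.83.

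Mitosis genes were also higher with both drugs. Of 25 mitosis genes 4 rose (0.41% of all genes did) and 0 fell (median 0.52). The survivin gene Birc5 rose by 0.84 ± 0.14 and the spindle checkpoint gene Mad2l1 by 0.83 ± 0.14. The mitotic kinase gene Cdk1 rose by 0.77 ± 0.14 and the kinetochore gene Ndc80 by 0.77 ± 0.15. Against the same vehicle arrays, the replication median was 0.93 with tamoxifen and -0.08 with rapamycin, and the mitosis median 1.01 with tamoxifen and -0.52 with rapamycin. The mean level of the mitosis list was 7.16 and 7.17 with vehicle, 8.09 and 8.20 with tamoxifen, 6.67, 6.56 and 6.55 with rapamycin, and 7.72 and 7.60 with both drugs. The 4 groups did not overlap on this measure. Against rapamycin alone 22 of the 25 mitosis genes and 14 of the 26 replication genes were called higher with both drugs, as were 1.13% of all genes. Against tamoxifen alone the mitosis median was -0.49 and the replication median -0.15, with 0 genes called by limma in either list, where 1257 of all genes had an unadjusted p under 0.05. Of 20 ribosome biogenesis genes 2 rose (0.41% of all genes did), the nucleolar genes Npm1 (0.88 ± 0.17) and Wdr43 (0.83 ± 0.14). All 20 had higher means (median 0.43, and 0.31 without vehicle 1). Hells kept its call in 8 of 9 fits with 1 array left out, lost without combination 1, Mcm6 in 6, Mcm4 in 5 and Prim1 in 3. Mcm7, Cdt1, Wdr43 and the 4 mitosis genes kept theirs in 2, and Npm1 in 1.

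**Figure D5:**
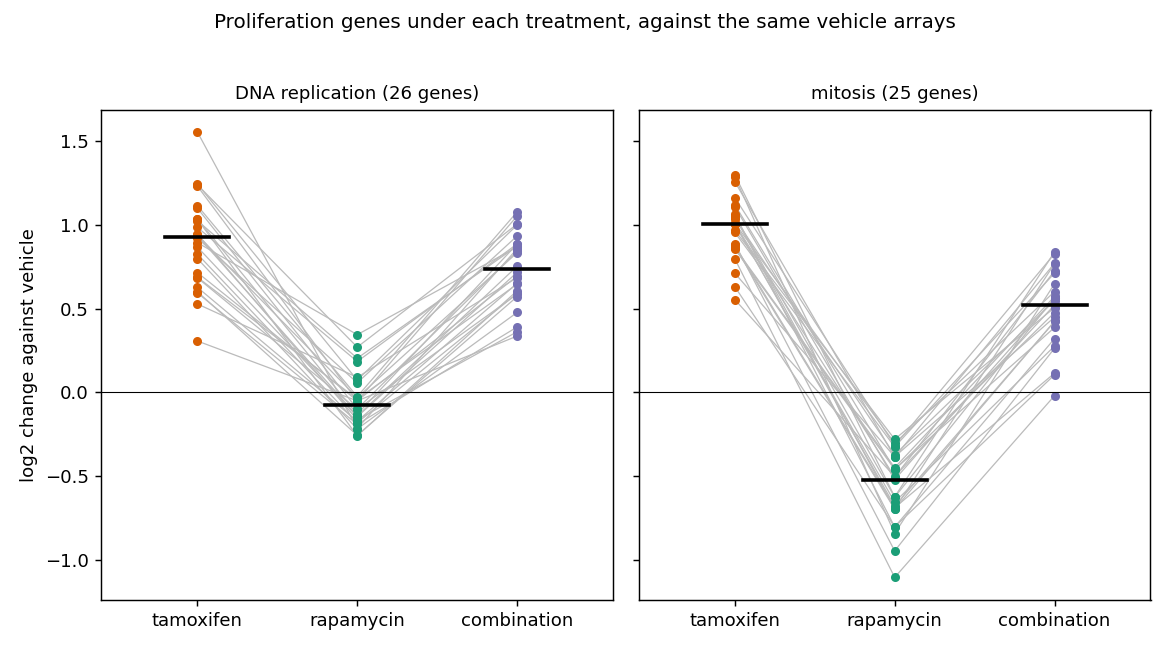
Log2 change against the same vehicle arrays for each of 26 replication and 25 mitosis genes (points joined by gene) under tamoxifen, rapamycin and both drugs, with black bars at the medians. For replication the medians are 0.93, -0.08 and 0.73, and for mitosis 1.01, -0.52 and 0.52.

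The Mcm6 promoter (chr1:128359706-128359855, minus strand, GRCm38.p6) is shown because it holds 2 sites of the form bound by E2F, the factor family that turns on replication genes. The line gives the 150 bases before the RefSeq start, with the sites in capitals.
Mcm6: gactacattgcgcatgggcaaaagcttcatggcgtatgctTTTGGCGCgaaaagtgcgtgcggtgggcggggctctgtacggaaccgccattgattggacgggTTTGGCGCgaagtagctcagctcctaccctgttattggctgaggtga
Either TTTGGCGC or TTTCCCGC, on either strand of the 250 bases before the start, was found in 5 of 22 replication genes with a RefSeq promoter and in 407 of 27025 genes (1.51%).

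Gast, the gene of the hormone gastrin that stimulates acid secretion, had the largest called rise. It read 6.46 and 6.42 with vehicle, 6.48 and 6.00 with tamoxifen, 8.30, 6.28 and 6.71 with rapamycin, and 9.73 and 9.08 with both drugs. Both combined arrays were above all 7 others, and 1 rapamycin array was above the rest. The rise against vehicle was 2.96 ± 0.55 (adjusted p = 0.0467). Against tamoxifen alone the difference was 3.16 ± 0.55, with a 95% interval from 1.91 to 4.42 and an adjusted p of 0.781, and it passed (adjusted p = 0.0486) when rapamycin 1 was left out. The rise against vehicle kept its call in 3 of 9 fits, and lost it without either vehicle array, either combined array, rapamycin 2 or rapamycin 3.

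Chgb, a granin gene of hormone granules, rose by 1.73 ± 0.21 (adjusted p = 0.0119), from 7.31 and 7.39 to 9.19 and 8.97. It also stood at 9.20 and 8.54 with tamoxifen, where Gast did not. The other 13 endocrine genes did not pass (list median -0.07, and 0.20 without vehicle 1). Among them, the ghrelin gene Ghrl stood at 0.05, the somatostatin gene Sst at -0.47 and the histamine-making enzyme gene Hdc at 0.04, all named after their values were seen. Chgb lost its call without vehicle 1 or either combined array.

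A few genes of drug metabolism and heat shock rose. Cyp2b10, a cytochrome induced through the receptor CAR, read 5.25 and 4.66 with vehicle and 7.59 and 7.63 with both drugs, a rise by 2.66 ± 0.43 (adjusted p = 0.0264). Cyp2c55 read 5.74 and 5.49 with vehicle and 7.23 and 7.33 with both drugs (1.66 ± 0.26, adjusted p = 0.0228). Every treated array lay above vehicle for Cyp2b10, while for Cyp2c55 tamoxifen 2, at 5.62, lay within the vehicle range. They were 2 of 18 xenobiotic metabolism genes (0.41% of all genes rose), with 0 that fell and a median of 0.01. Hspa1b, an inducible Hsp70 chaperone, rose by 1.88 ± 0.31 (adjusted p = 0.0318), from 6.69 and 6.73 to 8.15 and 9.03. It was the single called member of 16 heat shock genes, whose median was 0.16 with both drugs (0.36 without vehicle 2) and 0.58 with tamoxifen, and its probe set may also read the near-identical Hspa1a. Cyp2b10, Cyp2c55 and Hspa1b each kept their call in 3 of 9 fits with 1 array left out.

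Myc, the growth-promoting transcription factor gene, read 8.56 and 8.12 with vehicle and 9.98 and 9.93 with both drugs, and rose by 1.61 ± 0.23 (adjusted p = 0.0146). It stood between these levels in the other groups, at 9.37 and 8.72 with tamoxifen and 8.92, 9.12 and 8.95 with rapamycin. Ier3, an early stress gene, rose by 0.98 ± 0.15. This made 2 of 15 immediate early and injury genes (0.41% of all genes rose), with 0 that fell (median 0.36). Per1, a clock gene that also answers glucocorticoids, rose by 1.29 ± 0.16 (adjusted p = 0.0123), from 7.63 and 7.50 to 8.91 and 8.80. It read 8.71, 9.08 and 8.69 with rapamycin and 8.12 and 8.06 with tamoxifen. Per1 was the 1 called gene of 16 in the circadian list. Myc and Per1 lost their calls without vehicle 2 or either combined array, and Ier3 kept its call in 2 of 9 fits.

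The remaining large rises were mixed. Slurp1, a secreted peptide of squamous epithelium, rose by 2.67 ± 0.48 (adjusted p = 0.0391). It read 7.07 and 7.21 with vehicle and 9.85 and 9.76 with both drugs. With tamoxifen it read 9.65 and 7.94, where the squamous average was 9.50 and 4.96. With rapamycin it read 9.95, 9.09 and 9.25, where that average was 9.47, 8.21 and 5.45. The part of squamous content in its rise was not tested. The potassium channel subunit gene Kcne3 rose by 1.99 ± 0.36, D17H6S56E-5 by 1.95 ± 0.26 and the small nucleolar RNA gene Snora75 by 1.81 ± 0.34. Among 13 fibroblast and matrix genes the proteoglycan gene Dcn rose by 0.88 ± 0.16, while the list stood at a median of -0.15 (-0.43 without vehicle 1, 0.10 without vehicle 2) and 0.50 with tamoxifen. D17H6S56E-5 lost its call without either combined array, Kcne3 kept it in 3 of 9 fits, and Slurp1, Snora75 and Dcn in 2.

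Transcripts of the pathway that rapamycin inhibits held no called gene. Of 24 genes of mTORC1 and its regulators 0 were called by limma and the median was -0.12 (-0.24 without vehicle 1). Tsc2, a brake on mTORC1, read 9.18 and 9.12 with vehicle and 8.48 and 8.61 with both drugs (adjusted p = 0.11). Rragd, a Rag GTPase that recruits mTORC1 to lysosomes, read 6.63 and 6.28 with vehicle and 5.76 and 5.58 with both drugs (adjusted p = 0.116). Transcript levels do not show the activity of the kinase. Among 21 ATF4 and amino acid supply genes 2 fell, while 0.735% of all genes did. These were the mitochondrial folate enzyme gene Aldh1l2 (-1.77 ± 0.30) and the stress regulator gene Nupr1 (-1.47 ± 0.26). Gabarapl1, which coats autophagosomes, was the 1 called gene of 21 in the autophagy list and fell by 1.13 ± 0.19 (adjusted p = 0.0318), from 9.31 and 9.32 to 8.13 and 8.23. Gabarapl1 stood 2.62 higher in the parietal-cell array. Of 19 lysosome and vacuolar proton pump genes 0 were called (median -0.21). Aldh1l2 kept its call in 3 of 9 fits with 1 array left out, and Nupr1 and Gabarapl1 in 2.

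Of 19 endoplasmic reticulum folding genes 0 were called, and 18 had lower means. Their median was -0.32 (-0.43 without vehicle 1 and -0.19 without vehicle 2), and -0.06 with the squamous covariate. Sterol synthesis and uptake genes had 0 called of 16, with medians of -0.30 for both drugs, 0.44 for tamoxifen and -0.38 for rapamycin. The first of these ran from -0.66 without vehicle 1 to -0.03 without vehicle 2, so its size rests on which vehicle array was used. Insig1, which holds sterol sensing in check, read 10.12 and 10.58 with vehicle, 10.85 and 11.14 with tamoxifen, and 9.85 and 9.73 with both drugs. Lists of stem and progenitor, tuft, smooth muscle, endothelial and adipocyte cells held 0 called genes, with medians between -0.17 and 0.37. The adipocyte median was 0.37, with -0.03 without combination 1, 0.77 without combination 2 and -0.09 with the squamous covariate. Lists of fatty acid synthesis, glycolysis, iron handling, hedgehog, NRF2 antioxidant, p53 target, simple keratin and claudin genes also held 0 called genes.

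Against each single drug the combined group differed unequally. Between both drugs and tamoxifen alone limma called 0 genes (0%), although 1257 had an unadjusted p under 0.05. Pdk4 stood 1.02 ± 0.14 higher than with tamoxifen (95% interval from 0.70 to 1.34, adjusted p = 0.488) and Insig1 1.21 lower (adjusted p = 0.635). Against rapamycin alone 543 genes were called (2.45%), 251 higher and 292 lower. Among the lowest p-values, Atp6v0d2, a subunit of the vacuolar proton pump, was 3.61 ± 0.30 higher with both drugs (adjusted p = 0.00147). It averaged 8.46 with vehicle, and read 8.71 and 8.08 with tamoxifen, between 3.59 and 4.21 with rapamycin, and 7.46 and 7.42 with both drugs. Its 3 rapamycin arrays were far below the other 6. Against vehicle, 381 genes (1.72%) were called with tamoxifen alone and 11 (0.0496%) with rapamycin alone; these comparisons share the vehicle arrays with the one described here.

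Departure from the sum of the single-drug changes was tested as an interaction. It called 0 genes in limma, while 627 had an unadjusted p under 0.05 and the smallest adjusted p was 0.223. Those nearest to the threshold were St3gal4 (2.19) and Atp6v0d2 (3.68), both with an adjusted p of 0.223, followed by Mcpt1 (4.08, adjusted p = 0.492). St3gal4 and Mcpt1 were lower than vehicle with each single drug, and lower with both drugs by less than the sum of those changes.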

How the data were processed

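Whole-stomach RNA was amplified, labelled and hybridised to Affymetrix mouse arrays, 1 per sample. The authors deposited log2 values per probe set, normalized by RMA in Partek per the submitters' processing notes, with versions and settings not given in the sources used here. Of 41345 probe sets, 23521 carried 1 gene symbol, 1814 several and 16010 none. Genes with several probe sets were represented by the one of highest mean, giving 22180 genes, and symbols were checked by gene ID against RefSeq (GRCm38.p6; 23328 matched). Whole-stomach array medians lay between 4.95 and 5.09, and the number of arrays limits precision.

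Group means over the 9 whole-stomach arrays (2 vehicle, 2 tamoxifen, 3 rapamycin, 2 combination) were estimated by lmFit and eBayes of limma 3.58.1 (R 4.3.3), and p-values were adjusted by Benjamini-Hochberg over all genes. The fit was tested on simulated data with 200 changed genes. Genes named were, of those called without overlap between groups, 15 with the largest rise and 15 with the largest fall, up to 5 called genes per list (or the 2 of smallest p), and up to 6 of smallest p per direction in the other comparisons. The 48 lists (717 of 771 entries measured), the members and these rules were chosen with earlier results of these data known. Alternatives covered scaling, dim genes, probe set choice, eBayes options, groups fitted, each array left out, a replicate block and, after seeing the data, a crossed block. Promoters and miRNAs are RefSeq sequences.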

Additional observations from a re-analysis of the deposited data

How the results depend on the processing

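For both drugs against vehicle the 254 calls (91 higher, 163 lower) became 436 (191 and 245) without dim genes, where fewer genes were tested, 338 (215 and 123) with only the groups compared, and 352 (144 higher) with limma's trend and robust options. They became 10 (0 higher, 10 lower) with the squamous mean as covariate, and 257, 225, 242 and 259 with renewed quantile normalization, median centring, probe sets averaged per gene and probe sets tested singly. With a replicate block 149 genes were called (43 higher, 106 lower), 139 of them among the 254, with 260 against rapamycin and 1 for the interaction (Scd1, -4.01, adjusted p = 0.0249). Deviations of same-numbered arrays correlated at 0.56 between vehicle and tamoxifen, 0.41 and -0.09 between tamoxifen and rapamycin, -0.05 between vehicle and combined arrays and between -0.04 and 0.04 for rapamycin with vehicle or combined arrays. The numbers were therefore not treated as pairing the samples. Since tamoxifen and combined arrays correlated at -0.112, a crossed block was added after seeing the data, with 153 calls (60 higher, 93 lower), and 215 against rapamycin. Against rapamycin 543 calls became 865 without dim genes and 1102 with only the groups compared.

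With 1 array left out, calls against vehicle ran from 17 to 376 (higher 1 to 152, lower 16 to 224), against tamoxifen from 0 to 1, against rapamycin from 39 to 643, and for the interaction 0 throughout. A group left with 1 array is assumed to vary like the others. The single rise without combination 1 was Gm20559 (1.82), and the single call against tamoxifen without tamoxifen 2 was G630018N14Rik (2.77). Among named genes, Phlda3 turned from 0.88 to -0.0257 with the squamous covariate, and no other gene chosen by the naming rule changed sign under the alternatives run. Genes named after their values were seen were not rerun. Where not stated, the cause was not tested. Groups of 2 arrays limit the precision of every difference given.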

Other observations

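Genes that break down branched-chain amino acids and ketone bodies were lower with both drugs; this list was drawn up after the values were seen, so its counts describe and support nothing. Of 25 measured genes 12 fell (0.735% of all genes did) and 0 rose, and all 25 had lower means (median -0.80). Oxct1, which lets cells burn ketone bodies, read 11.05 and 11.21 with vehicle and 9.20 and 9.33 with both drugs, and fell by 1.86 ± 0.17 (adjusted p = 0.00371). Acadsb, a dehydrogenase of isoleucine breakdown, read 9.76 and 9.78 with vehicle and 7.85 and 8.20 with both drugs. The leucine carboxylase subunit gene Mccc1 changed by -1.74 ± 0.24 and the branched-chain dehydrogenase subunit genes Bckdhb and Dbt by -1.59 ± 0.21 and -1.27 ± 0.15. The list median was -0.83 with tamoxifen alone and -0.77 against rapamycin alone, and 20 of the 25 genes stood more than 1 higher in the parietal-cell array.

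MicroRNA genes, also picked out after their values were seen, held a few rises. Mir18 read 4.11 and 4.29 with vehicle and 5.49 and 5.71 with both drugs (1.40 ± 0.23, adjusted p = 0.0314). Mir19a read 2.56 and 2.66 with vehicle and 3.58 and 3.74 with both drugs (1.05 ± 0.14, adjusted p = 0.0136). These signals were dim: Mir19a lay below the whole-stomach array medians (4.95 to 5.09) in both groups, and Mir18 did so with vehicle. Mir18 and Mir19a belong to the miR-17-92 cluster, of which Mir17 and Mir20a did not pass (0.47 and 0.62, adjusted p = 0.566 and 0.268). Mir23a, of another cluster, rose by 1.23 ± 0.23 (adjusted p = 0.0475). The arrays measure the gene and not the mature arm. The RefSeq mature sequences are shown because their seeds, bases 2 to 8 in capitals, all differ.
miR-18a-5p: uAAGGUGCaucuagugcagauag
miR-19a-3p: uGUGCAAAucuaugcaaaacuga
miR-23a-3p: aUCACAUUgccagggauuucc
Of 93 genes with a small nucleolar RNA or host symbol, 6 rose (0.41% of all genes did), 1 fell (0.735% of all genes did) and 77 had higher means (45.9% of all genes did; median 0.45).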
